A study of Arabidopsis thaliana with 12 samples.

Results

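The genes described here are 118 Arabidopsis thaliana genes known in the array annotation only by a locus tag, whose transcripts were higher with lincomycin in Col-0 seedlings and not in gun1-101 seedlings. They were chosen by group means of the deposited log2 values, out of 16550 genes tested, of which 14745 carried only a locus tag. The mean had to be at least 6.5 log2 units in Col-0 on lincomycin. It also had to lie at least 0.8 above the Col-0 control, and the mean of gun1-101 on lincomycin had to lie at most 0.2 above its own control. Another 5 locus tags were left out by name, and none of the 5 met the thresholds. Because the lincomycin response of both genotypes chose the members, their responses and the genotype differences on either plate are given as descriptions, without a test.

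Each group held 3 arrays of whole 7-day-old seedlings, and the labels describe the 3 as biological replicates. The groups were gun1-101 on 0.5 mM lincomycin, gun1-101 without lincomycin, Col-0 on 0.5 mM lincomycin and Col-0 without lincomycin. Col-0 is the wild-type accession and gun1-101 a mutant of GUN1. All 4 groups were cold-treated for 2 days, given 8 h of light, kept in darkness for 5 days and placed in continuous light for 2 days. The mutant is represented by 1 allele, and the level of GUN1 itself was not analysed here.

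Lincomycin blocks translation on plastid ribosomes, so that plastids of seedlings germinated on it cannot make the proteins of their own genome and do not become functional chloroplasts. The state of the plastid is relayed to the nucleus by retrograde signalling, and GUN1, a chloroplast protein with pentatricopeptide repeats, is a component of that path. In seedlings without functional plastids the wild type represses many nuclear photosynthesis genes, and gun mutants are known for failing to do so in full. The members described here went the other way in the wild type.

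All 118 members were found in the RefSeq gene table as protein-coding loci, and none had a RefSeq symbol. Only 3 had a synonym that names a protein family. These were ATXYN2 for AT1G10050 and ATXYN3 for AT4G08160, both names of the xylanase type, and NPF5.14 for AT1G72120, a name in a family of nitrate and peptide transporters. The other members carry no described function in the tables used and are given by locus tag.

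Before the members, 2 arrays need mention. Col-0 control 1 was the highest of its group in 91 members (77.1%, against 41.1% of all genes tested), by a median of 0.51 log2 units over the mean of the other controls. Col-0 lincomycin 3 was the lowest of its group in 99 members (83.9%, against 41.3% of all genes), with a median difference of -0.46 from the other lincomycin arrays. Both narrow the gap between the Col-0 groups. No pair of arrays held identical values. Of tissue markers, 1 of 9 for green tissue, 2 of 8 for root, 3 of 6 for stomata, 1 of 3 for the shoot meristem, 0 of 2 for epidermis and 0 of 3 for vasculature were measured. LHCB1.5, an antenna protein gene of green tissue, averaged 10.73 in gun1-101 on lincomycin, 11.23 in the gun1-101 control, 7.34 in Col-0 on lincomycin and 11.70 in the Col-0 control. Of the 3 stomatal markers limma called 1 higher and 0 lower with lincomycin in gun1-101, and 0 higher and 2 lower in Col-0, with median differences of 0.03 in gun1-101 and -0.70 in Col-0. No root or meristem marker was called in either genotype. The root median was 0.20 in gun1-101 and -0.04 in Col-0, and the meristem gene had 0.16 in gun1-101 and -0.27 in Col-0. LHCB1.5 and 2 stomatal markers were thus called lower in Col-0 on lincomycin, the group where the members were high, and their part in the members' values was not tested. Since whole seedlings were used, fewer cells of a type and less RNA per cell cannot be told apart.

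AT5G03495 had the widest gap between the genotypes' responses. Its log2 values were 5.71, 6.43 and 5.95 in gun1-101 on lincomycin and 5.84, 6.31 and 6.61 in gun1-101 controls. They were 8.72, 8.58 and 8.29 in Col-0 on lincomycin, against 5.38, 4.00 and 3.90 in Col-0 controls. Every Col-0 lincomycin array stood above the other 9 arrays, and the 3 gun1-101 controls stood above the 3 Col-0 controls. The gun1-101 difference was -0.23 ± 0.35 (SE from limma, n = 3 each), and the Col-0 difference was 4.10 ± 0.35, or 17.1-fold.

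AT4G22960 was close to it in size and differed in the mutant's control. It read 5.14, 5.25 and 5.38 in gun1-101 on lincomycin and 5.01, 5.33 and 4.89 in gun1-101 controls, so that these groups overlapped. In Col-0 it read 8.51, 8.65 and 8.57 on lincomycin against 4.92, 4.34 and 4.47 in controls, a difference of 4.00 ± 0.17, or 16.0-fold. The gun1-101 control mean stood above that of Col-0 by 0.12 of the Col-0 response. For AT5G03495 the same part was 0.45.

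AT1G30160 was high on the Col-0 lincomycin arrays alone. It read 4.86, 4.10 and 5.00 in gun1-101 on lincomycin and 4.60, 4.84 and 4.68 in gun1-101 controls. Col-0 had 6.74, 6.32 and 7.24 on lincomycin and 4.38, 3.75 and 4.22 in controls, a difference of 2.65 ± 0.27 or 6.27-fold. AT2G07215 showed the same layout at a smaller size. It read 5.53, 5.14 and 4.95 in gun1-101 on lincomycin, 5.20, 5.10 and 5.13 in gun1-101 controls, 6.42, 7.25 and 7.03 in Col-0 on lincomycin and 5.05, 4.94 and 5.30 in Col-0 controls. The gun1-101 difference was 0.06, and the Col-0 difference was 1.80 ± 0.21. In both genes the Col-0 lincomycin arrays stood above the other 9. The gun1-101 controls lay above the Col-0 controls for AT1G30160 and overlapped with them for AT2G07215.

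AT1G68250 was the remaining member with a Col-0 response of at least 2, and its arrays disagreed within groups. Its values were 7.90, 4.73 and 5.68 in gun1-101 on lincomycin and 6.69, 5.14 and 6.39 in gun1-101 controls. In Col-0 they were 8.57, 8.03 and 4.63 on lincomycin and 4.96, 5.02 and 4.25 in controls. Col-0 lincomycin 3 lay among the controls, the groups overlapped in both genotypes, and the Col-0 difference was 2.33 ± 0.96.

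**Figure D1:**
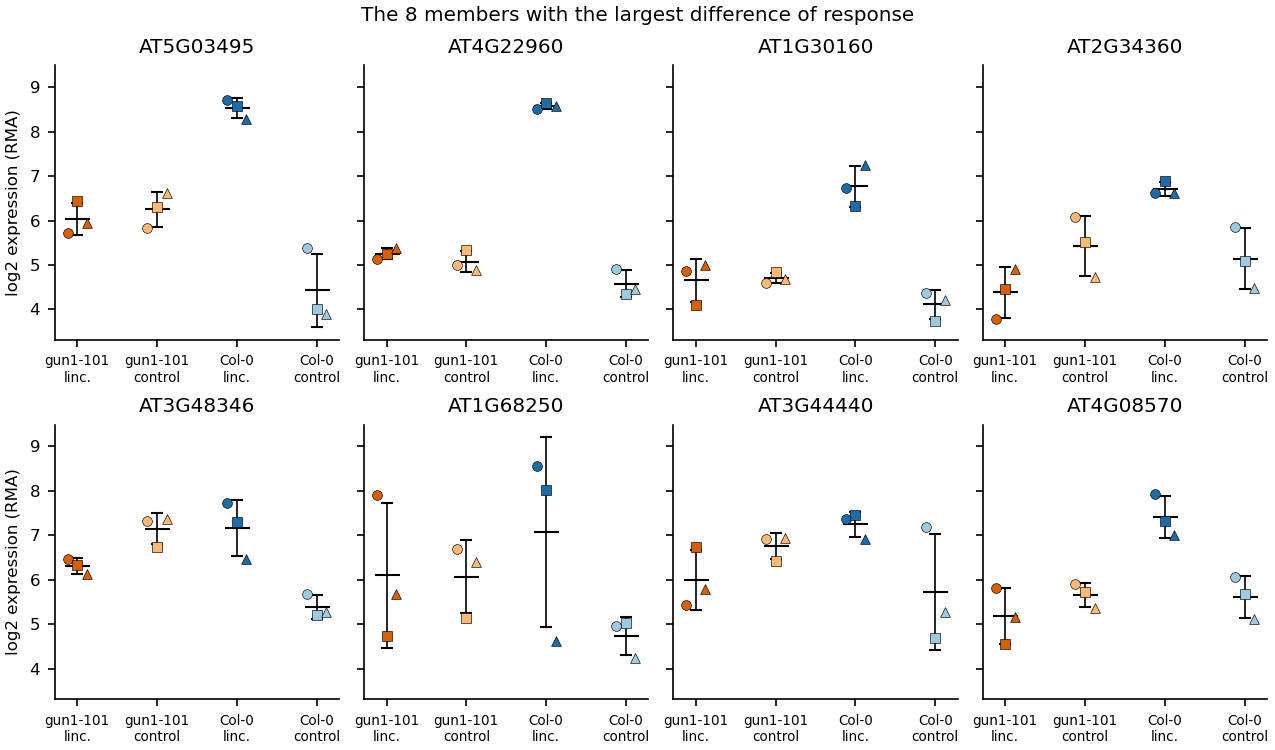
Log2 expression of the members with the widest gap between the Col-0 and the gun1-101 response, 1 panel for each of 8 genes. Points are arrays (circle, square and triangle for replicates 1, 2 and 3), with the mean and SD of 3 arrays, in gun1-101 lincomycin, gun1-101 control, Col-0 lincomycin and Col-0 control. AT4G22960 is high on the 3 Col-0 lincomycin arrays (8.51 to 8.65) and between 4.34 and 5.38 on the other 9, while AT1G68250 is split within groups.

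A second kind of member was lower in gun1-101 on lincomycin than in its own control. The difference was -0.5 or less in 12 members. In 9 of the 12 all gun1-101 lincomycin arrays lay below all gun1-101 controls. The cut at -0.5 favours that layout, and its share over all genes was not counted. All 12 had a gun1-101 control mean above the Col-0 control mean. The same held for 114 of all the members, and 4 had a lower mean. A high gun1-101 control mean also lowers the gun1-101 difference, so the cut favours this layout too. It does not set the 12 apart from the other members. The limma fit called 3 members lower in gun1-101, with a Benjamini-Hochberg adjusted p under 0.05, against 9.51% of all genes tested. At an unadjusted p under 0.05 it was 13 members, with no share over all genes counted. Without Col-0 control 1 or without Col-0 lincomycin 3, the count of 3 became 7 in each case, and without gun1-101 lincomycin 2 it was 5. The rule used this contrast, and nothing is read from these counts.

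AT3G45700 had the lowest gun1-101 difference. It read 6.83, 7.43 and 7.05 in gun1-101 on lincomycin against 8.24, 8.25 and 8.47 in gun1-101 controls, a difference of -1.21 ± 0.21. In Col-0 it read 8.41, 8.83 and 8.09 on lincomycin against 7.61, 7.36 and 7.80 in controls, a difference of 0.85 ± 0.21. The mutant's controls were at the level of Col-0 on lincomycin, and neither pair of groups overlapped.

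AT2G04680 and AT1G64590 were the other members that limma called lower. AT2G04680 read 6.65, 6.26 and 5.37 in gun1-101 on lincomycin and 7.10, 7.15 and 7.37 in gun1-101 controls, beside 7.19, 7.74 and 7.00 in Col-0 on lincomycin and 6.11, 6.70 and 6.26 in Col-0 controls. Its differences were -1.12 in gun1-101 and 0.95 ± 0.29 in Col-0. AT1G64590 read 9.15, 9.19 and 8.70 in gun1-101 on lincomycin, 9.70, 9.46 and 10.01 in gun1-101 controls, 10.36, 10.25 and 10.26 in Col-0 on lincomycin and 9.34, 9.33 and 9.42 in Col-0 controls. Neither pair of groups overlapped, and its differences were -0.71 ± 0.16 in gun1-101 and 0.92 ± 0.16 in Col-0.

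AT3G48346 combined a larger Col-0 response with a negative difference in the mutant. Values were 6.46, 6.34 and 6.12 in gun1-101 on lincomycin and 7.33, 6.74 and 7.37 in gun1-101 controls. They were 7.72, 7.29 and 6.47 in Col-0 on lincomycin and 5.69, 5.20 and 5.27 in Col-0 controls. The differences were -0.84 ± 0.28 in gun1-101 and 1.77 ± 0.28 in Col-0, and the part of the Col-0 response already present in the mutant's controls was 0.99. AT2G34360 had a like pair of differences, -1.04 ± 0.39 and 1.58 ± 0.39, but its part was 0.19. It read 3.78, 4.46 and 4.92 in gun1-101 on lincomycin, 6.07, 5.51 and 4.72 in gun1-101 controls, 6.62, 6.90 and 6.63 in Col-0 on lincomycin and 5.85, 5.08 and 4.48 in Col-0 controls. Its gun1-101 groups overlapped and its Col-0 groups did not.

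Other patterns among the 25 members with the widest gap were seen in AT4G36791 and AT4G08570. AT4G36791 read 7.50, 7.62 and 7.46 in gun1-101 on lincomycin, 8.47, 8.70 and 8.65 in gun1-101 controls, 8.81, 9.10 and 7.13 in Col-0 on lincomycin and 8.33, 7.46 and 6.71 in Col-0 controls. It was the only member whose gun1-101 control mean exceeded the Col-0 lincomycin mean, and its Col-0 groups overlapped. AT4G08570 had 5.82, 4.56 and 5.16 in gun1-101 on lincomycin, 5.90, 5.72 and 5.36 in gun1-101 controls, 7.92, 7.32 and 7.00 in Col-0 on lincomycin and 6.06, 5.67 and 5.11 in Col-0 controls. Its control means were level between genotypes, with a part of 0.02.

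Of the 25, 12 had a gun1-101 difference of -0.5 or less, 12 had a part of at least 0.5, and 5 had overlapping Col-0 groups. AT2G47680 was even in the gun1-101 controls (SD 0.04) and uneven in the Col-0 controls (SD 0.41). It had 7.76, 7.96 and 7.60 in gun1-101 on lincomycin, 8.19, 8.11 and 8.19 in gun1-101 controls, 9.14, 9.26 and 8.78 in Col-0 on lincomycin and 7.82, 7.01 and 7.30 in Col-0 controls. AT1G78750 and AT1G35625 had gun1-101 differences of -0.04 and -0.12, beside Col-0 differences of 1.60 and 1.66. In AT1G35625 Col-0 lincomycin 3, at 6.24, was closer to the highest control, at 5.65, than to the other lincomycin arrays, at 7.52 and 7.26.

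The remaining members of the 25 had a gun1-101 difference between -0.85 and -0.35. AT4G33120 and AT4G25800 had -0.85 and -0.73 in gun1-101 and 0.98 and 1.12 in Col-0. AT3G06920 and AT5G10605 had -0.72 and -0.69 in gun1-101 and 0.81 and 1.11 in Col-0. In these 4 genes the gun1-101 control means lay above the Col-0 control means by 0.65, 0.93, 0.66 and 0.80. AT5G49110, AT5G45840, AT1G13130 and AT1G60750 had gun1-101 differences of -0.41, -0.35, -0.42 and -0.35 and Col-0 differences of 1.54, 1.32, 1.18 and 1.23. AT3G44440 had 1.52 ± 0.52 in Col-0, with Col-0 control 1 at 7.19 against 4.70 and 5.28 in the other controls.

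Over all 118 members the gun1-101 difference had a lowest value of -1.21, a median of -0.06 and a highest value of 0.20, beside a median of -0.06 over all genes tested. It was below 0 in 74 members and within 0.2 of 0 in 77. The Col-0 response had a lowest value of 0.80, a median of 1.00 and a highest value of 4.10, beside a median of 0.02 over all genes. It was 1 or more, that is at least 2-fold, in 58 members, under 1 in 60, and at least 1.5 in 13.

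**Figure D2:**
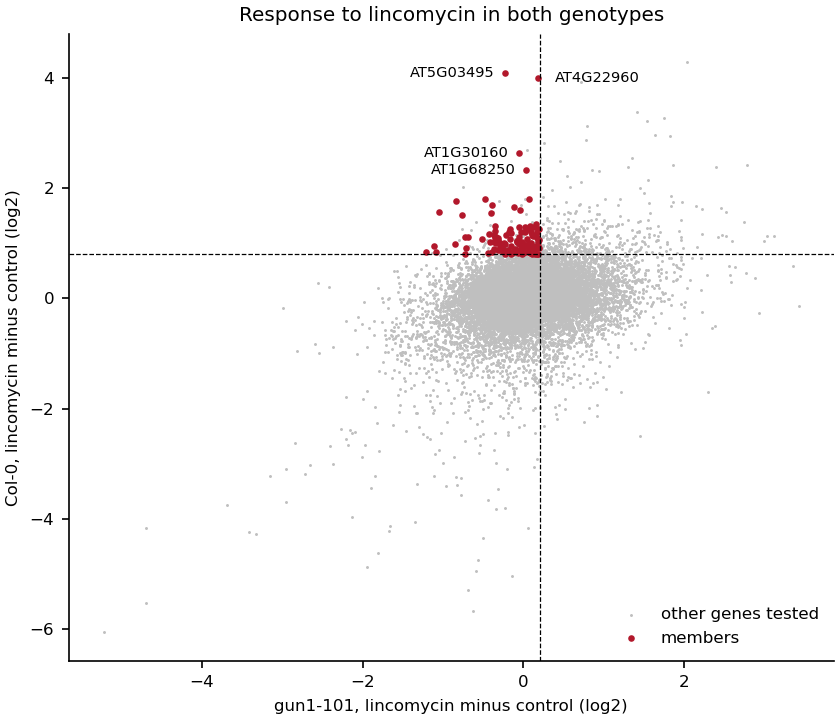
Log2 difference of lincomycin minus control in gun1-101 (horizontal) against the same difference in Col-0 (vertical), 1 point per gene, with members in red, other genes in grey and the thresholds of the choice dashed. Of the members, 60 lie between 0.8 and 1 in Col-0, and AT5G03495 (4.10) and AT4G22960 (4.00) stand far above it.

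The limma fit called 0 members higher with lincomycin in gun1-101, against 10.9% of all genes, and 100 higher in Col-0, against 7.15%. At an unadjusted p under 0.05 the gun1-101 count was also 0. The Col-0 count was 61 without Col-0 control 2, 66 without Col-0 lincomycin 1 and 55 without Col-0 lincomycin 2. The 3 Col-0 lincomycin arrays lay above the 3 Col-0 controls in 98 members (14.8% of all genes) and overlapped with them in 20. They lay above all other 9 arrays in 50 members (3.14% of all genes). The choice of the members fixes these directions.

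Loci on either side of each limit differed little. AT5G66500, AT2G16005 and AT1G70150 were just inside the Col-0 limit with 0.802, 0.805 and 0.808, and AT2G23985, AT1G53110 and AT2G03380 just outside it with 0.7986, 0.7968 and 0.7966. For the gun1-101 limit AT1G09300 was inside at 0.1999, and AT5G60250 was outside at 0.2028 although its Col-0 difference was 2.558. For the level limit AT1G60750 was inside at 6.534 and AT2G07795 outside at 6.477.

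The members' control levels in both genotypes also went into the rule. It favours a low Col-0 control mean and a gun1-101 control mean close to or above the gun1-101 lincomycin mean, so the values that follow lean the way the choice does and are a description. The gun1-101 control mean was above the Col-0 control mean in 114 of 118 members, compared with 52.4% of all genes, and below it in 4. The median difference was 0.49 for members and 0.02 for all genes. Expressed as a part of the Col-0 response, which holds the Col-0 control mean above and below the line, it had a median of 0.47 and a range of -0.43 to 1.31, and it was at least 0.5 in 52 members and under 0.25 in 18. On control plates all 3 gun1-101 arrays lay above all 3 Col-0 arrays in 46 members, against 8.18% of all genes. At an unadjusted p under 0.05, with no share over all genes counted, limma had 52 members higher in the gun1-101 controls. The rule leans this way, so nothing is read from the 52. The limma fit called 0 members between the control groups, against 0.0181% of all genes. It called 1 member without Col-0 lincomycin 3. Without Col-0 control 1 the fit called 42 members and 1054 of all genes tested, against 3 of all genes with every array kept. The median part was then 0.56, and 73 members had a part of at least 0.5.

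The 4 members whose mean was lower in the gun1-101 control were AT4G05095, AT4G01985, AT1G74440 and AT1G76780, singled out after their values were seen, with differences of -0.44, -0.18, -0.10 and -0.03. Members with a part of at least 0.5 had a median difference of -0.08 in gun1-101 and 0.95 in Col-0. The remaining 66 had medians of -0.06 in gun1-101 and 1.03 in Col-0. The class with a part of at least 0.5 held 9 of the 12 members with a gun1-101 difference of -0.5 or less. A high gun1-101 control mean raises the part and lowers that difference, so arithmetic favours this overlap. The difference between the classes was not tested, since the rule bounds both values.

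**Figure D3:**
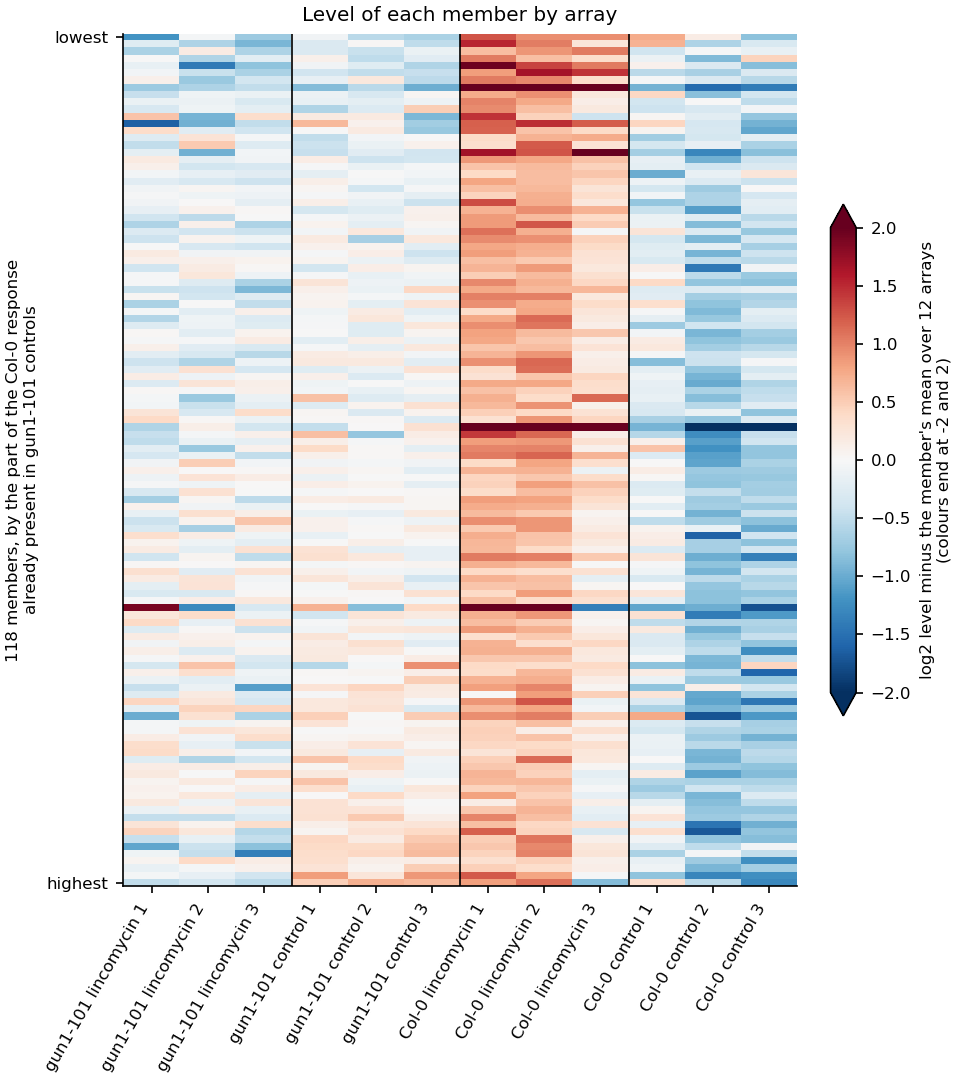
Log2 expression of the 118 members (rows) on 12 arrays (columns), each row shown as the difference from its own mean, ordered by the part of the Col-0 response present in gun1-101 controls. Col-0 lincomycin 1 and 2 stand out as high, Col-0 lincomycin 3 is paler and falls below the row mean in some rows, Col-0 control 1 is less low than controls 2 and 3, and the gun1-101 controls lie around the row mean.

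On lincomycin the gun1-101 mean was below the Col-0 mean in all 118 members, with a median difference of -0.66, beside -0.05 over all genes. At an unadjusted p under 0.05 limma had 78 members lower in gun1-101 on lincomycin, with no share over all genes counted. The rule favours this direction, so nothing is read from the 78. At an adjusted p under 0.05 it called 40, against 4.45% of all genes. Leaving out 1 array gave 16 without Col-0 lincomycin 1, 17 without Col-0 lincomycin 2, 21, 23 and 17 without gun1-101 lincomycin 1, 2 and 3, and 58 at most. The response itself was lower in gun1-101 than in Col-0 by 0.63 to 4.32 log2 units, and limma called 52 members lower in gun1-101 for this difference of responses, against 2.95% of all genes. That count was 99 without Col-0 control 1, 89 without Col-0 lincomycin 3 and 17 to 32 without any other single array. Over all genes, in either direction, it was 1153 with every array kept, 3876 without Col-0 control 1 and 2986 without Col-0 lincomycin 3.

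The members' median by array was 6.96, 6.91 and 6.93 in gun1-101 on lincomycin and 7.10, 7.14 and 7.00 in gun1-101 controls. It was 7.84, 7.70 and 7.25 in Col-0 on lincomycin and 7.00, 6.53 and 6.36 in Col-0 controls. Both gun1-101 groups thus lay between the Col-0 groups, with Col-0 control 1 at their level. Without Col-0 control 1 and Col-0 lincomycin 3 the median Col-0 response was 1.38.

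Another measure moved with the members across arrays. The table opens with 7083 probe sets that have no gene in the annotation, and their median was 4.71, 4.54 and 4.81 in gun1-101 on lincomycin, 5.10, 5.02 and 4.88 in gun1-101 controls, 5.07, 5.14 and 4.72 in Col-0 on lincomycin and 5.37, 4.50 and 4.50 in Col-0 controls. It was highest on Col-0 control 1 and lower on Col-0 lincomycin 3 than on the other Col-0 lincomycin arrays. With that median as a covariate, a setting chosen after seeing the data, the members' slope on it had a median of 0.65, beside 0.03 for all genes. The gun1-101 difference then had a median of 0.07 and a highest value of 0.64, and the Col-0 response had a median of 0.89 and a lowest value of 0.52. Of the 118 members, 75 kept a gun1-101 difference of at most 0.2, 83 kept a Col-0 response of at least 0.8, and 56 met all thresholds. The sources used here do not say what these probe sets measure, and their part in the result was not tested.

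AT4G22960 and AT5G03495 had Col-0 differences close to those without the covariate, with 0.34 and 0.13 in gun1-101 and 3.91 and 3.89 in Col-0. At 0.34, AT4G22960 was past the gun1-101 limit of 0.2 and no longer met the rule. AT2G07215 had 0.03 in gun1-101 and 1.82 in Col-0. Of the 25 members with the widest gap, 18 met all thresholds with the covariate. AT4G36791 was another that did not, with -0.54 in gun1-101 and 0.52 in Col-0.

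**Figure D4:**
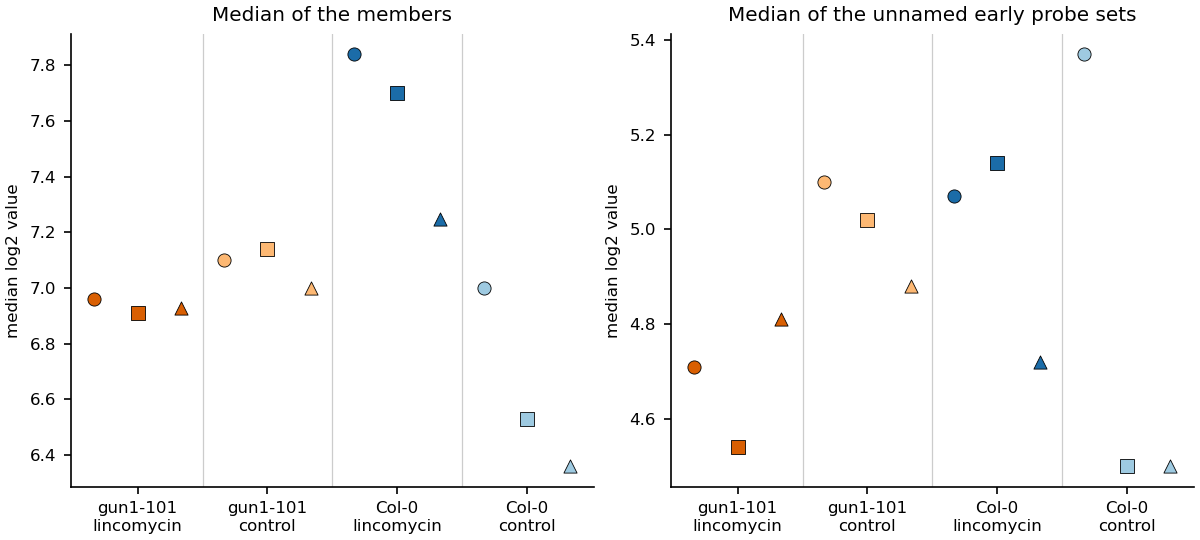
Median log2 value on each of 12 arrays, for the 118 members and for the 7083 probe sets without a listed gene that open the table, in the order gun1-101 lincomycin, gun1-101 control, Col-0 lincomycin, Col-0 control. Col-0 control 1 is the highest control in Col-0 in both (7.00 for members, 5.37 for unnamed probe sets).

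To see the pattern in arrays that did not choose the genes, the rule was applied to 2 replicates of each group and the remaining replicate was read. The comparison is with all locus-tag genes whose Col-0 lincomycin mean on the 2 choosing replicates was at least 6.5, without matching of levels. Choosing without replicate 1 took 202 loci, 92 of them members. In replicate 1 the Col-0 difference was above 0 in 182 of the 202 (90.1%, against 60.3% of locus-tag genes at that level), with a median of 0.49. It reached 0.8 together with a gun1-101 difference of at most 0.2 in 29 loci (14.4%, against 1.5%).

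Choosing without replicate 2 took 82 loci, 54 of them members. In replicate 2 the Col-0 difference was above 0 in 81 of the 82 (98.8%, against 56.7%), with a median of 1.22. Both limits were met in 36 (43.9%, against 7.11%), but the gun1-101 difference was at most 0.2 in 43 (52.4%), fewer than the 61.8% of the background. Choosing without replicate 3 took 207 loci, 98 of them members. In replicate 3 the Col-0 difference was above 0 in 198 of the 207 (95.7%, against 61.8%), with a median of 0.57. Both limits were met there in 37 (17.9%, against 1.52%). The held-out Col-0 difference was thus above 0 in most loci each time, and smaller than the limit of 0.8 in most loci where the held-out pair contained Col-0 control 1 or Col-0 lincomycin 3.

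The Col-0 difference exceeded the gun1-101 difference in the held-out replicate in 183 (90.6%), 70 (85.4%) and 186 (89.9%) loci for replicates 1, 2 and 3, against 52.1%, 52.5% and 51.5% of the background. These shares are descriptions, since replicates share their group and loci are not independent. The loci chosen in every one of the 3 choices numbered 35, all of them members by arithmetic, since limits met on each pair of replicates are met on the mean of the 3. They include AT5G03495, AT2G34360, AT3G48346, AT4G08570, AT2G47680, AT2G07215 and AT1G10050.

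**Figure D5:**
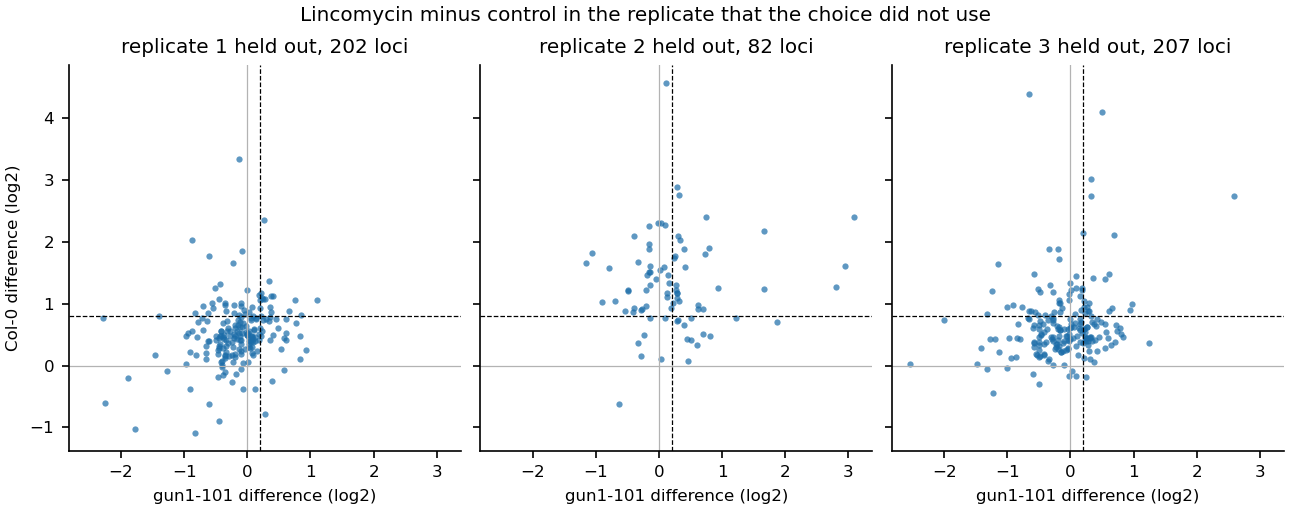
Log2 difference of lincomycin minus control in gun1-101 (horizontal) and in Col-0 (vertical) in the replicate left out of the choice, 1 point per locus chosen on the other 2 replicates and 1 panel per replicate, with the limits dashed. The Col-0 medians are 0.49, 1.22 and 0.57 for replicates 1, 2 and 3. For all locus-tag genes with a Col-0 lincomycin mean of at least 6.5 on the choosing replicates they are 0.10, 0.10 and 0.11.

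Among the members with a family name, ATXYN2 (AT1G10050) had 6.92, 7.64 and 7.08 in gun1-101 on lincomycin, 7.75, 7.78 and 7.63 in gun1-101 controls, 8.44, 8.40 and 7.96 in Col-0 on lincomycin and 7.59, 6.88 and 7.09 in Col-0 controls. ATXYN3 (AT4G08160) had 6.47, 6.5 and 6.30 in gun1-101 on lincomycin, 6.46, 6.41 and 6.51 in gun1-101 controls, 7.60, 7.37 and 6.75 in Col-0 on lincomycin and 6.25, 6.60 and 6.10 in Col-0 controls. Xylanases cut xylan, a polysaccharide of plant cell walls. The Col-0 differences were 1.08 ± 0.22 and 0.92 ± 0.20. The mutant's controls stood above those of Col-0 for ATXYN2 and at their level for ATXYN3. NPF5.14 (AT1G72120) had 7.45, 7.06 and 7.30 in gun1-101 on lincomycin, 7.25, 7.58 and 7.80 in gun1-101 controls, 8.15, 8.40 and 7.60 in Col-0 on lincomycin and 7.22, 6.95 and 7.27 in Col-0 controls.

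Levels of different probe sets do not rank the genes' expression. The members with the highest log2 values, by the Col-0 lincomycin mean, were AT2G07669 (11.08), AT1G64590 (10.29), AT5G40340 (10.19), AT5G48110 (10.17) and AT1G18270 (9.94). AT5G48110 had 9.24, 9.48 and 9.42 in gun1-101 on lincomycin, 9.05, 9.15 and 9.49 in gun1-101 controls, 10.09, 10.33 and 10.09 in Col-0 on lincomycin and 8.96, 8.29 and 9.19 in Col-0 controls. Its Col-0 difference was 1.35 ± 0.21, with no overlap between the Col-0 groups.

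AT2G07669, AT2G07673 and AT2G07692 lie in the stretch of chromosome 2 known to carry a copy of the mitochondrial genome. AT2G07669 read 10.60, 10.83 and 10.57 in gun1-101 on lincomycin, 11.01, 11.00 and 10.75 in gun1-101 controls, 11.27, 11.41 and 10.57 in Col-0 on lincomycin and 10.78, 9.95 and 9.95 in Col-0 controls. The median of 17 genes of the mitochondrial genome was 10.91, 11.21 and 11.05 in gun1-101 on lincomycin, 11.36, 11.54 and 11.35 in gun1-101 controls, 11.21, 11.47 and 11.10 in Col-0 on lincomycin and 11.51, 11.03 and 11.06 in Col-0 controls. AT2G07669 and that median were both high on Col-0 control 1 and low on Col-0 lincomycin 3 within their groups. AT2G07673 was high on Col-0 control 1 (6.85, against 5.57 and 5.95) but not lowest on Col-0 lincomycin 3 (7.06, against 6.59 and 7.43). AT2G07692 was low on Col-0 lincomycin 3 (7.05, against 7.83 and 7.85), but its Col-0 controls were level at 6.58, 6.54 and 6.54. Transcripts of the nuclear copy and of the mitochondrial genome cannot be told apart where their sequences are near-identical, and the Col-0 differences of 0.86, 0.90 and 1.02 for these loci are uncertain for that reason.

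By position, 43, 17, 19, 20 and 19 members lay on chromosomes 1 to 5. Chromosome 1 held 36.4% of members and 26.2% of locus-tag genes, and chromosome 5 held 16.1% and 23.3%. Members that were direct neighbours in the order of protein-coding genes were AT1G10040 with AT1G10050 and AT1G64590 with AT1G64600. Their Col-0 differences were 1.00 and 1.08 for the first pair and 0.92 and 0.84 for the second. AT1G35625 and AT1G35660 had 1 gene between them. The gene after AT1G64600, AT1G64610, was no member, with differences of 0.35 in gun1-101 and 0.93 ± 0.17 in Col-0 (adjusted p = 0.00348 in Col-0, limma).

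The measured neighbours that were not members numbered 142. Their Col-0 response had a median of 0.05, beside 0.02 over all genes, and limma called 14 of them higher in Col-0 (9.86%, against 7.15% of all genes) and 7 lower. The neighbour with the largest response was AT1G30170, next to AT1G30160 and singled out after its values were seen. It had 3.15, 3.36 and 4.19 in gun1-101 on lincomycin, 3.63, 3.55 and 3.39 in gun1-101 controls, 5.39, 5.52 and 6.34 in Col-0 on lincomycin and 3.14, 3.20 and 2.82 in Col-0 controls. Its difference was 0.04 in gun1-101 and 2.69 ± 0.28 in Col-0 (adjusted p = 7.44e-05 in Col-0, limma). Like AT1G30160, it was above the other 9 arrays on the 3 Col-0 lincomycin arrays, and its Col-0 lincomycin mean missed the limit of 6.5. Whether probes of 1 gene also bind transcripts of the other was not tested.

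The thresholds were met about as often by genes with only a locus tag, 118 of 14745 (0.80%), as by genes with a symbol, 15 of 1805 (0.831%). The 15 included APL3 and APL4, large subunits of ADP-glucose pyrophosphorylase in starch synthesis, with gun1-101 differences of -0.65 and -0.68 and Col-0 differences of 1.24 and 0.95. The chromatin remodelling gene chr31 had 0.02 in gun1-101 and 1.80 in Col-0. These were singled out after their values were seen.

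Other genes known to respond to organelle stress or to mark seed development were read from lists. The lists hold 0 members. Members have no symbol, so the choice kept out every listed gene that has one. The 5 loci left out by name belong to the mitochondrial dysfunction list, and none of them met the thresholds. Of these 5, AT2G18193 had differences of 1.64 in gun1-101 and 2.96 in Col-0, and AT2G04070 had 2.38 in gun1-101 and -0.51 in Col-0. Read from 12 of 18 listed genes, that list had 6 genes called higher and 0 lower in gun1-101, and 6 higher and 1 lower in Col-0, with median differences of 1.12 in gun1-101 and 1.01 in Col-0. The seed maturation and reserve list, read from 13 of 29 genes, had 5 called higher and 0 lower in each genotype, with medians of 0.72 in gun1-101 and 0.91 in Col-0. Whether the same genes were called in both genotypes was not counted. Of detoxification genes 3 of 18 were measured, with 0 called higher in gun1-101 and 1 in Col-0. Of endoplasmic reticulum stress genes 3 of 9 were measured, with 1 called higher in gun1-101 and 0 in Col-0. Of sugar and dark response genes 1 of 10 was measured, called higher in gun1-101 and not in Col-0. No gene of the plastid chaperone list (0 of 9) or the abscisic acid list (0 of 15) was measured.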

How the data were processed

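RNA of whole seedlings was hybridised to Affymetrix arrays, 3 per group. Per the submitters' processing notes, the deposited log2 values come from Affymetrix Expression Console 1.3, which ran RMA. RMA corrects background, equalises array distributions and summarises probe sets, so a change shared by most transcripts is removed. The sources used here do not name the array design. Precision is limited by the number of arrays.

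Among 38408 probe sets, the platform annotation gave 1 gene for 16722, several for 759 and none for 20927. The probe set with the highest mean stood for a gene (146 genes had more than 1), and 16550 genes were tested. Identifiers were looked up in RefSeq (TAIR10.1), where 16411 matched. All value columns were mapped to samples by their labels.

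In R 4.3.3, limma 3.58.1 fitted the 4 group means on the 12 arrays together, without a block. Calls needed a Benjamini-Hochberg adjusted p under 0.05 over 16550 genes, two-sided. The fit had 8 residual degrees of freedom. Errors are its standard errors. Counts at an unadjusted p are from the same fit and were made for members only.

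The members and gene lists were chosen with earlier results of these data known. Members are named by rank of the difference between the Col-0 and gun1-101 responses, by calls in gun1-101, by Col-0 lincomycin level, by closeness to a threshold, by position next to each other and by a synonym. Family counts and promoter motifs, also planned, could not be made from the tables used.

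Replicate numbers were not treated as pairs in the main fit, since the labels do not describe a pairing. Same-numbered arrays of the Col-0 groups had correlations of deviations of 0.439, -0.298 and 0.39, and no contrast had all above 0.1. With so few arrays these correlations cannot decide whether samples were paired. Alternatives were other normalisations, filters, thresholds, array weights, a replicate block, arrays left out and, added later, a covariate.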

Additional observations from a re-analysis of the deposited data

Results flagged for a closer look

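By the test of the difference of responses in limma (adjusted p under 0.05), 52 of the 118 members were called, all lower in gun1-101. Over all genes tested, 2.95% were called lower. The count of members was 21 with the covariate and 17 to 99 with 1 array left out. The rule that chose the members used both responses and fixes this direction, so the count is a description.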

How the results depend on the processing

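The count of members called higher in Col-0 (100) stayed within 93 and 115 under a median shift, quantile normalisation, a filter at a mean of 5, a replicate block, array weights, the covariate and the removal of Col-0 control 1 with Col-0 lincomycin 3. Leaving out 1 array gave 55 to 109. The members called in gun1-101 (3) became 5 with means under 5 left out, 14 with array weights and 12 without both arrays, and 2 to 7 with 1 array left out. Between controls, 0 members became 57 with weights, 66 without both arrays and 0 to 42 with 1 left out. On lincomycin, 40 became 82 with weights, 75 without both and 16 to 58 with 1 left out. For the difference of responses, 52 became 111 with weights, 108 without both, 21 with the covariate and 17 to 99 with 1 left out. The weights of Col-0 control 1 and Col-0 lincomycin 3 were 0.272 and 0.376.

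Over all genes, array weights gave 4863 calls in Col-0 (2374), 5682 in gun1-101 (3384), 1998 between controls (3), 4385 on lincomycin (1585) and 5536 for the difference of responses (1153). Without both arrays these counts were 4787, 5141, 2854, 4088 and 5378, and the covariate gave 527 for the difference of responses. With 1 array left out the ranges were 1356 to 3377, 1964 to 4289, 0 to 1054, 748 to 2464 and 379 to 3876. The cause was not tested.

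The rule itself took 328 loci with a Col-0 limit of 0.6, 58 with a limit of 1, 252 with group medians (90 of them members) and 496 without both arrays (115 of them members). With 1 array left out it took 91 to 283, of which the 283 without Col-0 control 1 held 113 members and the 264 without Col-0 lincomycin 3 held 117. With the covariate it took 79, 56 of them members. A gun1-101 limit of 0.1 or 0.3 gave 94 or 146, and a level limit of 6 or 7 gave 144 or 88. A median shift gave 112 (101 members) and quantile normalisation 118 (102 members).

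The replicate number was also used as a block, although the labels do not describe it as a pairing. The counts of members were then 105 in Col-0, 5 in gun1-101, 0 between controls, 46 on lincomycin and 63 for the difference of responses. In all, 1 gene was called between controls.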
